A study of Homo sapiens with 12 samples.

Results

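AU565 is an established human breast carcinoma line in which ERBB2, the gene of the HER2 growth factor receptor, is amplified. The comparison described here sets AU565 cells grown in the format labelled Capsule against AU565 cells grown as small spheroids by liquid overlay, a method that keeps cells from attaching to the dish so that they gather into balls. It uses the 3 capsule and the 3 small spheroid libraries, 6 of the 12 libraries of the series, and all 16020 genes of the count table, of which 15175 passed the filter on low counts and were tested. The remaining libraries, 3 of monolayer and 3 of large spheroid, entered the fit and are quoted only as reference levels. All cells are labelled wild type. Every library of the series carries one and the same treatment label, 5% matrigel (a basement membrane extract) after trastuzumab, the antibody against HER2, with 96 h until RNA was taken. The labels' protocol text names liquid overlay for all libraries, the capsule ones included. Cells were kept in RPMI with 10% fetal bovine serum. With no antibody-free culture among the libraries analysed, the effect of trastuzumab is not measured. The labels give neither the material of the capsule nor the size or cell number of either format. They also leave unsaid whether the 3 libraries of a format came from 3 cultures, so every p-value below measures the spread between libraries, which could be technical only. The column of capsule replicate 1 spells the format out in full where those of replicates 2 and 3 abbreviate it, and it was assigned by format and number.

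In a packed ball of cells, oxygen, glucose and growth factors reach the outer layers first. Low oxygen stabilises the HIF transcription factors, which raise genes of glycolysis, pH control and vessel growth. Shortage of amino acids or stress in the endoplasmic reticulum raises translation of ATF4, which turns on amino acid synthesis and transport. Division is written into the transcriptome in waves: E2F factors drive the genes of DNA replication at the start of S phase, and the DREAM and MuvB complexes, which bind a short promoter element called CHR, hold back or drive the genes of mitosis. RNA from a whole culture is a mean over its cells, so fewer cells in a state and less RNA per cell in that state cannot be told apart.

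The small spheroid libraries held 13971346 to 15709859 counts and the capsule libraries 14148600 to 15742541. Capsule replicate 1 stood apart. Over 11701 genes its counts differed from those of capsule replicates 2 and 3 by a chi-square of 39.1 and 34.6 per gene, where replicates 2 and 3 differed by 2.99 and the small spheroid pairs by 2.80 to 5.92. The first principal component of the 6 libraries (66.3% of the variance) set the formats apart, and the second (12.5%) set capsule replicate 1 apart from the other capsule libraries. Counts without it are therefore given beside each gene list whose counts it moves by 1.5 times or more. For genes that it moves as far, or whose call it ends, values without it are given in many cases but not in all. AU565 marker genes, with ERBB2 at their head, summed to 23951 to 24766 CPM (counts scaled to a common library total) in the small spheroid and 18773 to 25296 CPM in the capsule libraries. Markers of other cell types were low in both: fibroblast markers summed to 52.7 to 74.5 and 40.1 to 57.6 CPM, blood markers to 38.2 to 47.5 and 18.2 to 26.1 CPM, endothelial markers to 13.2 to 16 and 20.5 to 22.1 CPM, melanocyte markers to 5.98 to 7.07 and 6.73 to 7.75 CPM (GPR143 at 0), and cardiac markers to 4.20 to 6.23 and 2.41 to 3.54 CPM. Of these, 3 of 9 tested fibroblast markers, 1 of 3 blood markers and 1 of 7 melanocyte markers passed as lower in the capsule. Among 5 endothelial markers 2 passed as higher and 1 as lower, and none of 6 cardiac markers passed. Over all genes tested 27.0% passed as higher and 25.0% as lower. Without capsule replicate 1, lower fibroblast markers numbered 3, lower melanocyte markers 0, and endothelial markers 1 higher and 1 lower. After the correction for GC content and length described below, these numbers were 1, 0, 3 and 1. Of 13 tested AU565 markers 3 passed as higher and 6 as lower, with the same counts without capsule replicate 1. After that correction 4 passed as higher and 4 as lower. The part of the markers of other cell types in the results was not tested.

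The formats differed widely and in both directions. Of the 15175 genes, 7893 (52.0%) met edgeR's quasi-likelihood test at a Benjamini-Hochberg adjusted p below 0.05, 4096 (27.0%) higher and 3797 (25.0%) lower in the capsule. These shares are the background for every count of list members below. Most differences were small: the median size among called genes was 0.59 on the log2 scale, and differences of at least 2-fold numbered 742 on the higher and 756 on the lower side. Against a minimum change of 1.5-fold, 1476 genes passed (9.73%), 767 higher (5.05%) and 709 lower (4.67%). The 3 capsule libraries did not overlap the 3 small spheroid libraries for 58.8% of genes, 29.8% higher and 29.0% lower. Without capsule replicate 1, 7326 of 15533 genes passed (47.2%), 24.1% as higher and 23.1% as lower, and 6820 of the 7893 genes kept call and direction. Without TMM factors, on library totals alone, 62.9% of the called genes were higher in the capsule where the TMM fit gave 51.9%, and the median log2 fold change over all genes moved from 0.016 to 0.12. Directions below are relative to the TMM scaling.

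**Figure D1:**
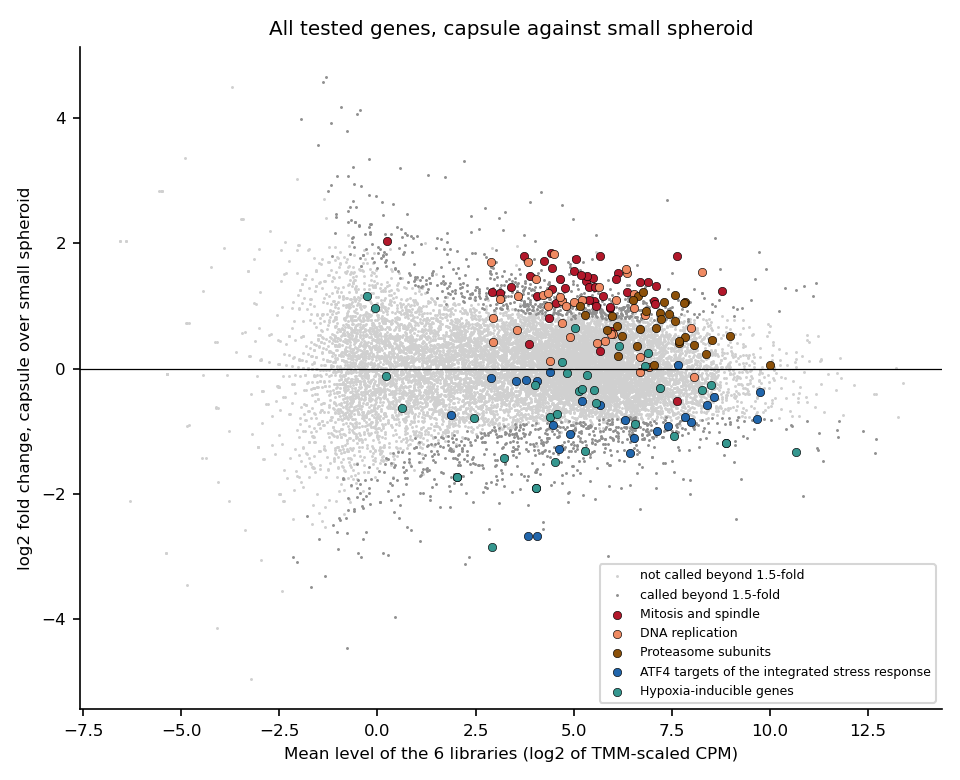
All tested genes detected in the 6 libraries, with the mean level of the 6 libraries on the x axis (log2 CPM) and the log2 fold change, capsule over small spheroid, on the y axis. Dark grey points are the genes that passed the test against a 1.5-fold change, 1476 of 15175, and coloured points are the members of 5 gene lists. Mitosis, replication and proteasome genes lie mostly above 0 and ATF4 and hypoxia genes mostly below.

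One property of the transcripts ran along with the fold changes. Genes of low GC content (the share of G and C bases in the transcript) were higher in the capsule and genes of high GC content lower, with a Spearman correlation of -0.50 over the 14638 tested genes with a known GC content. That is a correlation over genes, which are not replicates, and it is given as a description. Set against the mean of the small spheroid libraries, capsule replicate 1 correlated with GC content at -0.60, and replicates 2 and 3 at -0.41 and -0.42. Genes of 35 to 40% GC had a median log2 fold change of 0.44, and genes of 60 to 65% GC one of -0.37. A fit with a smooth correction for GC content and length called 7095 genes (46.8%), 23.9% higher and 22.9% lower. Of the 7893 genes first called, 5364 kept call and direction, 2495 lost the call and 34 were called the other way. It called 959 genes beyond 1.5-fold. For each gene list whose count of members called higher or lower moved by 1.5 times or more after correction or without capsule replicate 1, the counts higher and lower in those fits are given beside it. The part of this trend in the results was not tested.

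**Figure D2:**
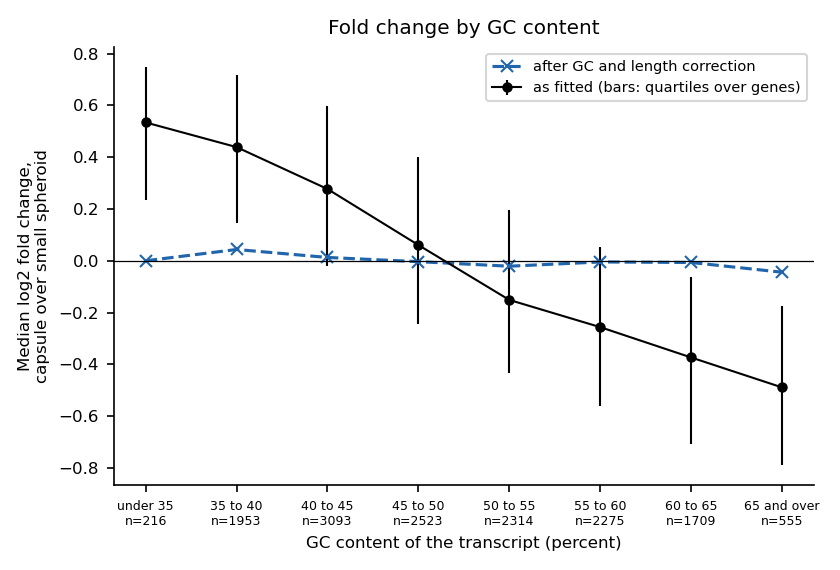
Median log2 fold change, capsule over small spheroid, in bins of transcript GC content (percent, number of genes under each bin). Black points with bars show the fit without correction and the quartiles over genes, and blue crosses the fit with GC and length correction. The medians run from 0.53 in the lowest bin to -0.49 in the highest and lie within 0.044 of 0 after correction.

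Genes of cell division were higher in the capsule. Values below are TMM-scaled CPM, and where a pair of triplets is joined by "against", the small spheroid replicates 1, 2 and 3 stand first and the capsule replicates 1, 2 and 3 second. Fold changes are capsule over small spheroid on the log2 scale, with their standard error after the ± sign. In the list of mitosis and spindle genes, 42 of 44 tested members were higher and 1 was lower, with a median log2 fold change of 1.30 beside 0.016 over all genes, of which 27.0% were called higher and 25.0% lower. Without capsule replicate 1 the counts were 43 and 1 with a median of 1.22, and after GC and length correction 43 and 1 with a median of 1.06. MKI67, the antigen used by pathologists to count cycling cells, stood at 84.8, 83 and 85.7 CPM in small spheroid replicates 1, 2 and 3 and at 147, 209 and 182 CPM in capsule replicates 1, 2 and 3. All capsule libraries were above all small spheroid libraries, and capsule replicate 1 was the lowest of its format. The log2 fold change was 1.08 ± 0.11 (edgeR adjusted p = 5.8e-07). Reference means were 190.4 CPM in monolayer and 31.8 CPM in large spheroid. HMMR, a hyaluronan receptor that also binds the spindle, had 9.66, 9.09 and 9.18 CPM in the small spheroid and 36.2, 33.4 and 31.1 CPM in the capsule libraries, a 3.6-fold higher level with no overlap (log2 1.85 ± 0.097, edgeR adjusted p = 1.1e-09). ANLN, the scaffold of the cleavage furrow, was at 89.3, 93.4 and 81.9 against 378, 266 and 278 CPM (log2 1.80 ± 0.11). BUB1B, a kinase of the spindle checkpoint, was at 24.7, 21.7 and 25.5 against 67.2, 66.7 and 62.2 CPM (log2 1.45 ± 0.091). Both were higher in every capsule library than in any small spheroid library. CDK1, the kinase that starts mitosis, differed by 1.80, its cyclins CCNB1 and CCNA2 by 1.38 and 1.41, and the kinetochore proteins NDC80, CENPE and CENPF by 1.80, 1.76 and 1.31. CDC25B, a phosphatase that activates CDK1, was the member lower in the capsule, at 236, 224 and 239 against 133, 176 and 179 CPM (log2 -0.52 ± 0.10). The Aurora kinase AURKB had a log2 fold change of 0.40 and was not called. It was called higher without capsule replicate 1 and after GC and length correction, fits in which all 44 members were called.

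CHR, in its core letters TTTGAA, is the promoter element that MuvB complexes read at mitotic genes, so the promoters of HMMR and BUB1B are shown. They are the 250 bases before the gene's start, read 5′ to 3′ on the gene's strand (RefSeq, assembly GRCh38.p14), with the CHR letters in capitals.
HMMR promoter, chr5:163460382-163460631, plus strand: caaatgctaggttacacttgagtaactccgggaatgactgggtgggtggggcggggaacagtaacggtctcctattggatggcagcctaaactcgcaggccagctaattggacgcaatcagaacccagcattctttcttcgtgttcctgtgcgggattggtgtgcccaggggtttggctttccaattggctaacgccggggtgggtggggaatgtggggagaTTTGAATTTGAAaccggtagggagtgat
BUB1B promoter, chr15:40160819-40161068, plus strand: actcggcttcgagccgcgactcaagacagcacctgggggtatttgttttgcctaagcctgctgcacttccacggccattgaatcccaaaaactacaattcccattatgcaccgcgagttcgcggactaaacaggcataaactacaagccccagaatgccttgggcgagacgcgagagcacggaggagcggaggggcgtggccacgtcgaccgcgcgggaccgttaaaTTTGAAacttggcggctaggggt
HMMR carries the letters in a tandem pair that begins 28 bases before the start, and BUB1B once, 23 bases before it. On either strand, TTTGAA was found in 27 of the 39 mitosis and spindle promoters with a sequence (69.2%), in windows from 250 bases before to 50 bases after the start, and in 9.91% of the 11549 such windows of tested genes. A match is a description of letters and not a bound site.

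DNA replication genes were higher too: 32 of 37 tested members passed as higher and 0 as lower, with a median of 1.0 (0.94 without capsule replicate 1 and 0.93 after GC and length correction). CDC6, which loads the replicative helicase onto origins, had 151, 159 and 163 CPM in the small spheroid and 559, 407 and 413 CPM in the capsule libraries. The capsule libraries were all higher, replicate 1 by the widest margin, and the log2 fold change was 1.54 ± 0.11 (edgeR adjusted p = 3.7e-08; 1.38 without capsule replicate 1). RRM2, the regulated subunit of ribonucleotide reductase, had 39.3, 39.3 and 41.8 against 116, 121 and 125 CPM, a difference of 1.59 ± 0.078 with the capsule libraries close together. Its partner RRM1 had 57.7, 56.4 and 55.6 against 141, 121 and 124 CPM (log2 1.18 ± 0.080). PCNA, the sliding clamp of the replicative polymerases, was at 42.7, 41.4 and 42.5 against 149.7, 103 and 111 CPM (log2 1.52 ± 0.12). CLSPN, the adaptor of the replication checkpoint, was at 10.5, 9.84 and 9.48 against 38.1, 33.9 and 33.8 CPM (log2 1.82 ± 0.11), and UHRF1, which brings the maintenance methyltransferase to new DNA, at 9.86, 8.63 and 8.03 against 21.7, 26 and 24.1 CPM (log2 1.43 ± 0.13). None of these 6 genes had overlapping libraries. The MCM2 to MCM7 subunits of the helicase ran from 0.41 for MCM2 to 1.30 for MCM6, all called. TK1, POLD1, POLE, CDT1 and DNMT1 were not called, with log2 fold changes of -0.13, -0.05, 0.02, 0.12 and 0.18. After GC and length correction, though, 36 of the 37 members were called higher and 0 lower, which takes in most of these genes. Without capsule replicate 1 the counts were 34 and 0.

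E2F factors read the core GCGGGAA in many of these promoters. That of PCNA is shown in the same way, with the E2F letters in capitals.
PCNA promoter, chr20:5126623-5126872, minus strand: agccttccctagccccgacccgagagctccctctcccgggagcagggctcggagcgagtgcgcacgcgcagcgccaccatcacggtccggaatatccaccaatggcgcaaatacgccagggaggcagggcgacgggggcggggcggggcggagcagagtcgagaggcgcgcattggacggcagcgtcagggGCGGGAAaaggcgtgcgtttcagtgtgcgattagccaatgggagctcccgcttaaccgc
The letters begin 59 bases before the start. GCGGGAA was found on either strand in 16 of 33 replication promoters (48.5%) and in 10.0% of all 11549.

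Repair by homologous recombination and the Fanconi pathway, which mends broken replication forks, had 22 of 24 tested genes higher and 0 lower (median 0.99, 0.78 after correction). EXO1, the nuclease that resects DNA ends, had 8.8, 9.84 and 8.41 against 35, 24.8 and 27.6 CPM (log2 1.69 ± 0.15). FANCI, a substrate of the Fanconi ubiquitin ligase, had 28.8, 33.1 and 34.2 against 97.5, 78.9 and 79.4 CPM (log2 1.41 ± 0.11). The formats did not overlap for either gene. Regulators of the G1 to S transition gave 18 higher and 2 lower of 20, among them CCNE2, a cyclin of CDK2 (log2 1.88), CDC25A (1.14) and RBL1 (1.11) on the higher side. RBL2, the pocket protein of resting cells, was lower (75.2, 73.9 and 70.0 against 52.1, 54.5 and 54.8 CPM, log2 -0.44 ± 0.074), and so was CCND2, a cyclin at low level here (0.533, 0.454 and 1.3 against 0.442, 0.206 and 0.0704 CPM, log2 -1.59 ± 0.65, edgeR adjusted p = 0.05). CCND1, the cyclin of G1 entry, differed little, with 269, 259.6 and 257 against 269.6, 322 and 314 CPM (log2 0.20 ± 0.076, edgeR adjusted p = 0.032), and lost its call when any one of capsule replicates 2 and 3 or small spheroid replicates 1, 2 and 3 was left out (0.15 to 0.22). Of 15 histone genes 9 were higher and 1 lower (7 and 0 without capsule replicate 1, 7 and 2 after correction), with H2AZ1 at 1.10 and H1-2 at 1.11. The list of 8 CDK inhibitors had 3 members higher and 1 lower. CDKN1C, the inhibitor p57, was the lower one with 2.2, 3.41 and 2.22 against 0.695, 0.756 and 0.704 CPM (log2 -1.85 ± 0.31). CDKN3, which is itself a gene of dividing cells, was at 16.5, 16.4 and 18.8 against 56.8, 38.9 and 41 CPM (log2 1.40 ± 0.14). CDKN1A, the p53-induced inhibitor p21, was at 12.4, 16.8 and 16.2 against 20.4, 12.7 and 11.2 CPM with overlapping libraries (log2 -0.03 ± 0.18, edgeR adjusted p = 0.91). For CDKN1A only capsule replicate 1 lay above all small spheroid libraries, and capsule replicate 3 lay below them all. Among 19 p53 targets 6 were higher and 7 lower (4 and 8 without capsule replicate 1, 3 and 9 after correction). The 13 tubulins gave 7 higher and 1 lower (6 and 1 without capsule replicate 1, 7 and 2 after correction), with TUBA1B at 1.10 and TUBB2B at -0.70.

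**Figure D3:**
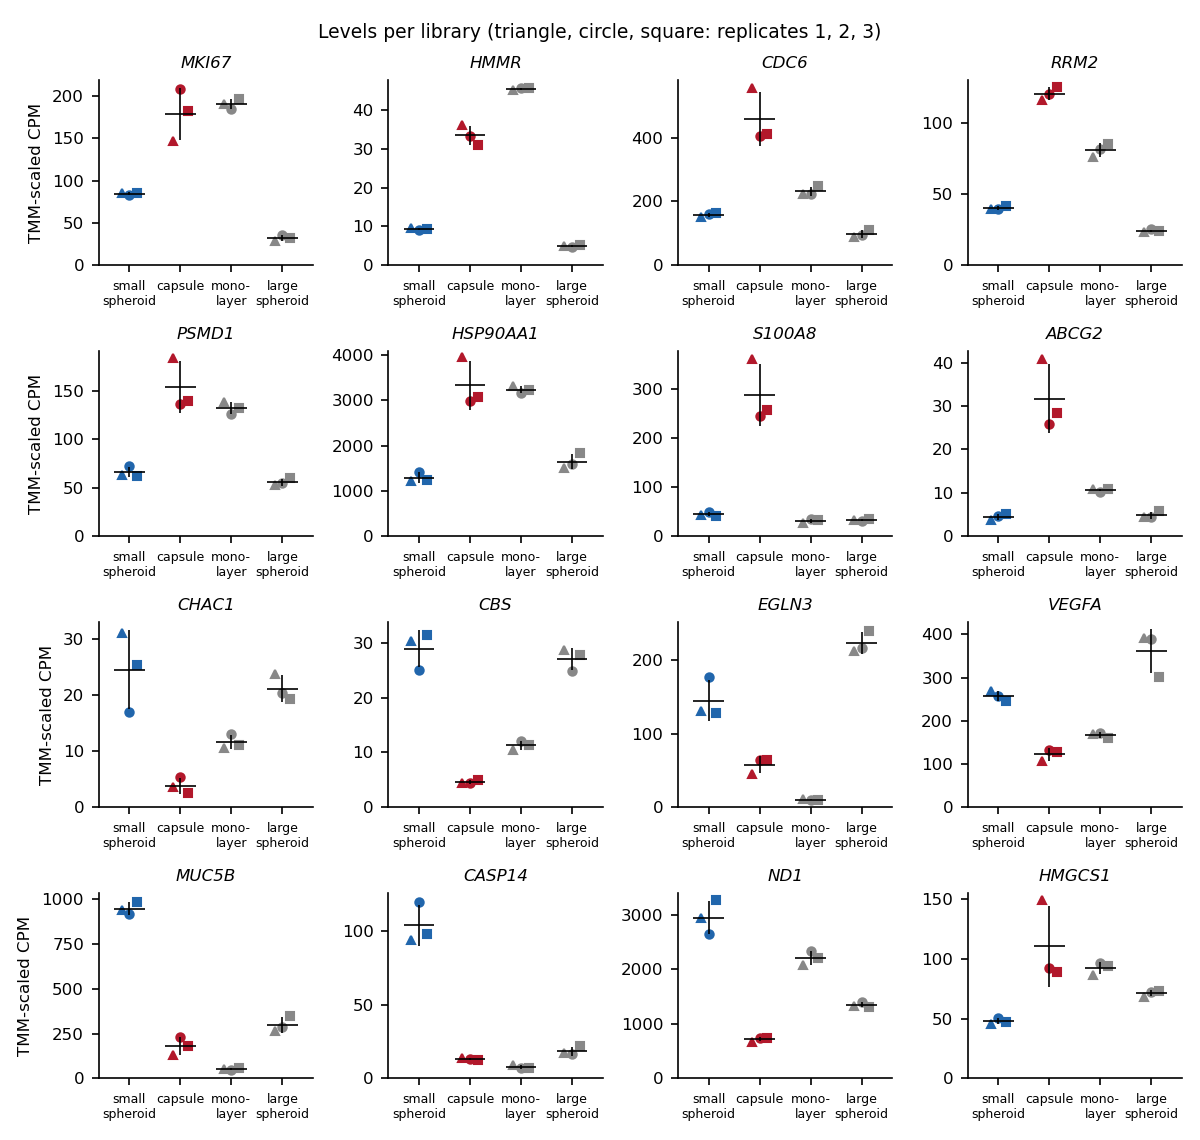
TMM-scaled CPM of 16 genes in each library, 1 gene per panel, with small spheroid in blue, capsule in red and monolayer and large spheroid in grey. Horizontal bars are means over 3 libraries and vertical bars SDs. MKI67 to ABCG2 and HMGCS1 are higher in every capsule than in every small spheroid library, and CHAC1 to ND1 lower.

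Proteasome subunits were also mostly higher in the capsule. Of 31 proteasome subunits 28 were higher and 0 lower, with a median log2 fold change of 0.69 (28 higher and a median of 0.58 without capsule replicate 1, 28 and 0.55 after correction). PSMD1, a scaffold of the regulatory particle, had 63.4, 71.9 and 62.2 CPM in the small spheroid and 184, 136 and 139.5 CPM in the capsule libraries (log2 1.22 ± 0.11, edgeR adjusted p = 2.0e-07). PSMC2 and PSMC3, ATPases of its base, differed by 1.17 ± 0.12 and 1.04 ± 0.086. All 3 were without overlap, and capsule replicate 1 held the highest level of each. PSMB4, PSMC4 and PSMD3 were not called, with values of 0.24, 0.05 and 0.06.

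Heat shock proteins and their partners gave 15 higher and 3 lower of 22 (15 and 2 without capsule replicate 1, 15 and 2 after correction), with a median of 0.52 (0.43 without capsule replicate 1, 0.38 after correction). HSP90AA1, the inducible cytosolic HSP90 on which HER2 protein depends for stability, was at 1210.0, 1423 and 1241 against 3952, 2983 and 3068 CPM. Each capsule library was above every small spheroid library, and the difference was 1.37 ± 0.11 on the log2 scale (edgeR adjusted p = 5.4e-08). HSPA8, the constitutive HSP70, was at 881, 1036 and 940.3 against 2826, 1959 and 2022 CPM (log2 1.25 ± 0.11). CHORDC1, a co-chaperone of HSP90, was at 21.9, 24.2 and 21.5 against 68.3, 50.7 and 56.4 CPM (log2 1.38 ± 0.12). The stress-induced HSPA1A and HSPA1B were not called (-0.34 and -0.26), nor was HSP90AB1 (0.06). HSF1, the transcription factor of the heat shock response, was lower (192, 205 and 204 against 90.6, 123 and 119 CPM, log2 -0.85 ± 0.099), as were BAG3 (-0.52) and HSPB1 (-0.40), the last not called after correction (-0.09) or without capsule replicate 1 (-0.24). The members of the list thus went in both directions.

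The CHORDC1 promoter holds heat shock elements, inverted GAA repeats read by HSF1, here searched as GAA, any 2 bases, TTC, any 2 bases and GAA again. They are in capitals.
CHORDC1 promoter, chr11:90223050-90223299, minus strand: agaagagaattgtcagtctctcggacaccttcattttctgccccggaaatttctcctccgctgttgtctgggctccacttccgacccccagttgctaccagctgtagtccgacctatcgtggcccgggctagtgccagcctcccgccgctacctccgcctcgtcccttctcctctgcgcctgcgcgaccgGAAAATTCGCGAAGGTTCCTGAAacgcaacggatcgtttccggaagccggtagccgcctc
The run of capitals begins 60 bases before the start and holds overlapping matches. The letters were found in 3 of 20 promoters of the list (15%; HSPA8, DNAJA1 and CHORDC1) and in 0.32% of all 11549. Genes of the unfolded protein response in the endoplasmic reticulum split, with 6 higher and 5 lower of 22 (median 0.012; after correction 5 higher and 10 lower with a median of -0.13, and without capsule replicate 1 5 and 8). HSPA5, the chaperone BiP, was not called (916, 975 and 994 against 951, 818 and 852 CPM, log2 -0.14 ± 0.074, edgeR adjusted p = 0.13), but was called lower after correction (-0.24) and without capsule replicate 1 (-0.20). HERPUD1, a part of the degradation machinery there, was lower (251, 253 and 271 against 137, 133 and 137 CPM, log2 -0.93 ± 0.068). 

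ATF4 target genes were lower in the capsule as a group, and none was called higher. Of 28 tested members 22 were lower, with a median log2 fold change of -0.81 (24 lower and a median of -0.78 without capsule replicate 1, 24 lower and -0.73 after correction). CHAC1, an enzyme that degrades glutathione, had 31, 17 and 25.4 CPM in the small spheroid and 3.67, 5.36 and 2.46 CPM in the capsule libraries. The formats were far apart although the small spheroid libraries varied among themselves, and the level was 6.39-fold lower in the capsule (log2 -2.68 ± 0.23, edgeR adjusted p = 1.8e-07). CBS, the first enzyme of transsulfuration from homocysteine to cysteine, had 30.3, 25.1 and 31.5 against 4.42, 4.33 and 4.93 CPM (log2 -2.67 ± 0.13). ASNS, asparagine synthetase, had 103, 89.7 and 109 against 67.9, 52.7 and 50.5 CPM (log2 -0.81 ± 0.11), with reference means of 168 CPM in monolayer and 259 CPM in large spheroid. All small spheroid libraries were above all capsule libraries for these 3 genes. The glycine transporter SLC6A9 differed by -1.34 ± 0.11, the stress sensor SESN2 by -1.29, the mitochondrial PEP carboxykinase PCK2 by -1.11, and PHGDH, PSAT1 and SHMT2 of serine and glycine synthesis by -0.92, -0.58 and -0.84. VLDLR (-1.91), STC2 (-1.74) and DDIT4 (-1.19) stand in the hypoxia list as well, so the lists share 3 members. DDIT3, the factor CHOP, differed by -0.90 and ATF4 mRNA itself by -0.46. MTHFD2, ATF3, CTH, GDF15, SLC7A11 and PSPH did not pass, with values from -0.20 to 0.07. ADM2, a secreted peptide outside the list, was 5.87-fold lower (34.4, 28.5 and 32.6 against 4.87, 5.23 and 6.19 CPM).

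The composite element that ATF4 binds with C/EBP factors was searched as TGATGNAA, and it stands in capitals in the promoters of CHAC1 and ASNS, the first of which carries it on the opposite strand.
CHAC1 promoter, chr15:40953221-40953470, plus strand: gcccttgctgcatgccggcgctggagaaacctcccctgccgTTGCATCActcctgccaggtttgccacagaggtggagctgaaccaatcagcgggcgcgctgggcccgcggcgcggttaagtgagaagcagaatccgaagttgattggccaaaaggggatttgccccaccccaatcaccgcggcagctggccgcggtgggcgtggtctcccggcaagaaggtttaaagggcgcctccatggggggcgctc
ASNS promoter, chr7:97872409-97872658, minus strand: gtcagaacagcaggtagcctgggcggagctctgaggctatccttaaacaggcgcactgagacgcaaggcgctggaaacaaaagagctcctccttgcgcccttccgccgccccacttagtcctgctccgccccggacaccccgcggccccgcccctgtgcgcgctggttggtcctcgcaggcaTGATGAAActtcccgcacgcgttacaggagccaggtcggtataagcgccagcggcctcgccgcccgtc
It begins 209 bases before the start of CHAC1 and 68 bases before that of ASNS. Of 23 promoters of the list 4 held it (17.4%; ATF3, ASNS, CHAC1 and SLC3A2), as did 1.69% of all 11549. Enzymes that charge tRNAs, several of which are ATF4 targets, gave 17 higher and 7 lower of 35 (median 0.23). The alanine enzyme AARS1 was lower (226, 202 and 227 against 99.1, 115 and 118 CPM, log2 -0.98 ± 0.092) and the arginine enzyme RARS1 higher (75.1, 73.3 and 70.2 against 178, 119.6 and 119 CPM, log2 0.93 ± 0.12), each without overlap. 

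**Figure D4:**
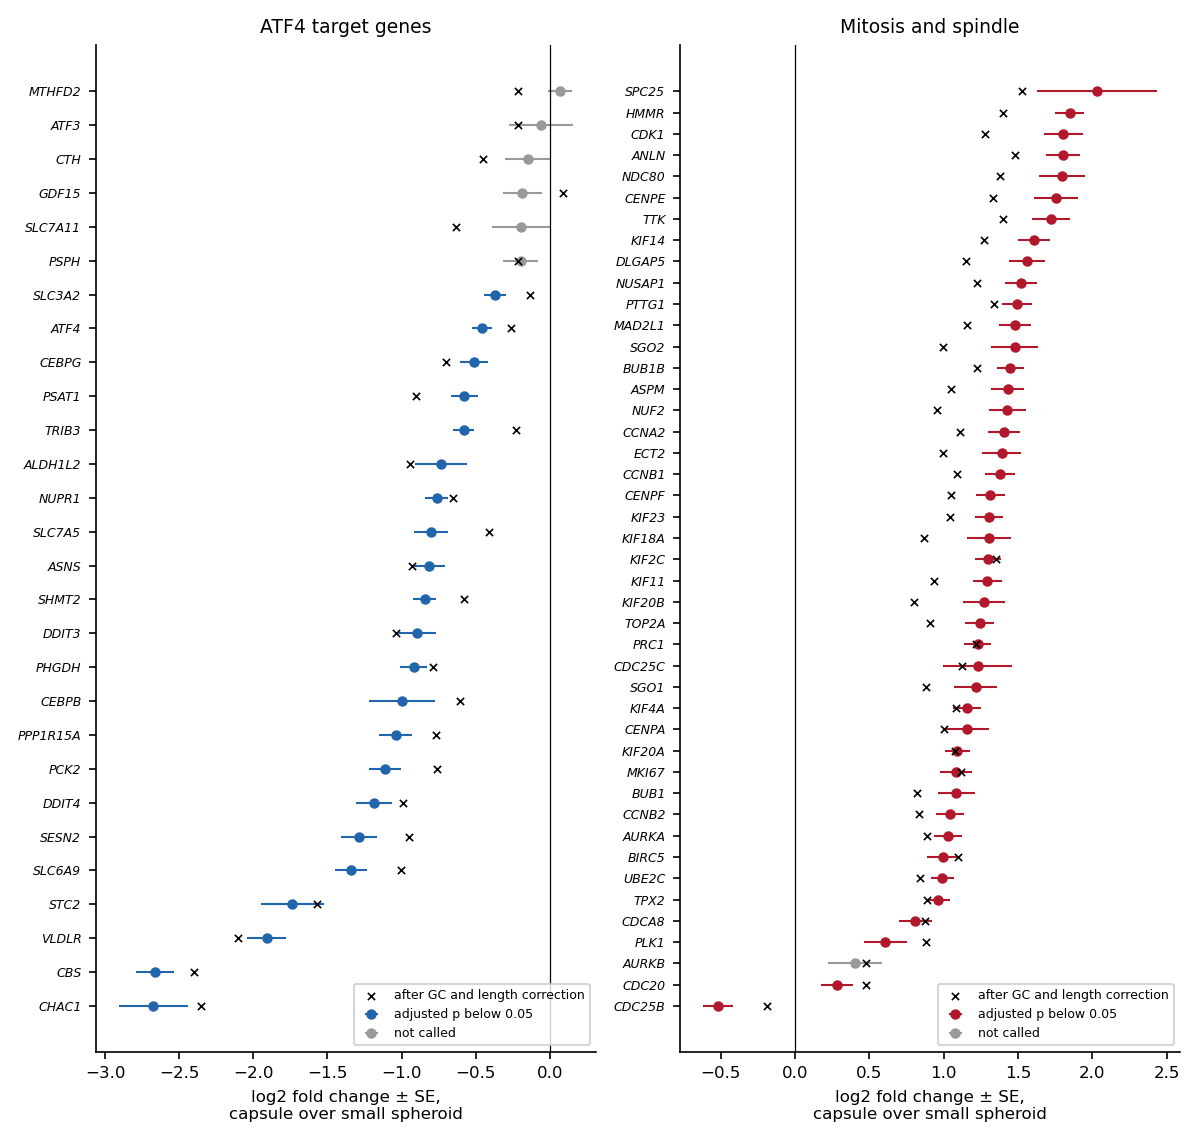
Log2 fold change ± SE, capsule over small spheroid, of each tested member of the ATF4 list (left) and of the mitosis list (right). Coloured points are genes with an adjusted p below 0.05, grey points are not called, and crosses are values after GC and length correction. The 22 called ATF4 targets lie left of 0, and of the 43 called mitosis genes CDC25B lies left of 0.

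Hypoxia genes were mostly lower in the capsule, with exceptions. Of 32 tested members 20 were lower and 5 higher (median -0.35), 20 and 4 without capsule replicate 1 (median -0.40), and 20 and 2 after GC and length correction (median -0.56). CA9, the carbonic anhydrase used as a hypoxia marker, had 11.9, 18 and 11.2 CPM in the small spheroid and 4.23, 4.54 and 6.47 CPM in the capsule libraries. Its formats did not overlap, small spheroid replicate 2 was the highest, and the log2 fold change was -1.43 ± 0.21 (edgeR adjusted p = 2.8e-05). Reference means were 1.16 CPM in monolayer and 11.1 CPM in large spheroid. CA12, a related enzyme, had 53.3, 59.5 and 53.9 against 19.2, 23.9 and 24.3 CPM (log2 -1.31 ± 0.098). VEGFA, the vessel growth factor, had 268, 257 and 245 against 106, 133 and 128 CPM (log2 -1.07 ± 0.10). EGLN3, the oxygen-sensing hydroxylase that HIF itself induces, had 130.0, 177 and 128 against 44.6, 64.7 and 64.5 CPM (log2 -1.32 ± 0.14), between 10.2 CPM in monolayer and 223 CPM in large spheroid. Each of these genes was higher in every small spheroid library than in any capsule library. LOXL2, a collagen crosslinking oxidase, was 7.15-fold lower in the capsule (11, 17 and 11.8 against 1.45, 2.13 and 1.97 CPM), and NDRG1, PPFIA4 and ANKRD37 differed by -1.32, -1.49 and -0.79. On the other side, ANGPTL4 (1.16), RORA (0.96), INSIG2 (0.65), PLOD2 (0.36) and EFNA1 (0.25) were higher, though PLOD2, INSIG2 and RORA were not called after correction (-0.13, 0.14 and 0.55) and RORA not without capsule replicate 1 either (0.89). BNIP3, PDK1, KDM3A, LOX, JMJD6, ADM and SLC2A3 were not called, though KDM3A was called lower after correction (-0.30). Of the 9 HIF subunits and oxygen sensors 0 were higher and 5 lower (2 and 4 without capsule replicate 1, 1 and 5 after correction), with HIF1A at 106, 117 and 108 against 195, 111 and 104 CPM and overlapping libraries (log2 0.31 ± 0.16, edgeR adjusted p = 0.12). For HIF1A only capsule replicate 1 lay above all small spheroid libraries, and capsule replicate 3 lay below them all. 

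HIF binds the core ACGTG, which also lies within the E-box CACGTG of other factors. It is in capitals, on the opposite strand as CACGT, in the CA9 promoter.
CA9 promoter, chr9:35673678-35673927, plus strand: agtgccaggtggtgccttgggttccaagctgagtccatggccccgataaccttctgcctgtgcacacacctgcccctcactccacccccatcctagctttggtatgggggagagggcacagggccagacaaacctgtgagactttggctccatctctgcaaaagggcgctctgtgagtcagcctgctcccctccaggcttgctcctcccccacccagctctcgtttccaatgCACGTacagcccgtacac
The match begins 18 bases before the start. ACGTG was found on either strand in 12 of 26 hypoxia promoters (46.2%) and in 26.4% of all 11549. Of the glycolysis and lactate list, 12 of 19 were lower and 2 higher (median -0.40, -0.16 after correction). Without capsule replicate 1 12 were lower and 1 higher (median -0.30), and after correction 9 and 1. ALDOC, an aldolase, had 122, 154 and 141 against 48.2, 58.5 and 63.4 CPM (log2 -1.29 ± 0.10), and PFKP, a phosphofructokinase, 176, 189 and 182 against 71.7, 98.8 and 95.8 CPM (log2 -1.04 ± 0.10). The lactate exporter SLC16A3 had 598, 609 and 600.1 against 293, 353 and 333 CPM (log2 -0.89 ± 0.089, -0.44 after correction). All 3 were without overlap. The glucose transporter SLC2A1 was lower by a smaller margin (334, 349.9 and 347 against 223, 296 and 291 CPM, log2 -0.35 ± 0.10) and was not called after correction (-0.14, edgeR adjusted p = 0.14). PGK1, ENO1, PKM, TPI1 and LDHA were not called, and PGAM1 and LDHB were higher by 0.30 and 0.29. LDHB lost its call after correction (0.08) and without capsule replicate 1 or small spheroid replicate 1 or 3 (0.17 to 0.27), and PGAM1 without small spheroid replicate 1 (0.24).

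Mitochondrial transcripts split by the genome that encodes them. Of 15 RNAs encoded in the mitochondrial genome 12 were lower and 1 was higher in the capsule, with a median of -0.83 (-0.76 without capsule replicate 1, -1.36 after correction). The 13 mitochondrial mRNAs made up 4.83%, 4.43% and 5.33% of counts in the small spheroid libraries and 2.54%, 2.72% and 2.73% in the capsule libraries, without overlap. Their share was 4.32% to 4.90% in monolayer and 4.16% to 4.48% in large spheroid. ND1, a core subunit of complex I, had 2935, 2650.3 and 3262 against 675, 736 and 745 CPM (log2 -2.04 ± 0.086, edgeR adjusted p = 2.7e-10), and ND4 9266, 8451 and 10273 against 3346, 3902 and 3767 CPM (log2 -1.35 ± 0.087). ND3 and COX3 were not called (0.03 and -0.14), but both were called lower after correction (-0.62 and -0.47), where 14 of the 15 RNAs were lower and 1 was higher. Of the ribosomal RNAs, RNR1 was higher (1383, 1474 and 1958 against 2374, 1986 and 2594 CPM, log2 0.53 ± 0.12) and RNR2 lower (log2 -0.41 ± 0.10). Nuclear copies of mitochondrial sequence can take or share these reads, which leaves the levels uncertain.

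Nuclear genes of the same machinery leaned the other way. Complex I subunits gave 22 higher and 6 lower of 37 (22 and 4 without capsule replicate 1, 18 and 2 after correction), with a median of 0.37 (0.21 after correction). Complexes III, IV and V had 26 higher and 3 lower of 34 (26 and 4 without capsule replicate 1, 20 and 2 after correction), with a median of 0.46 (0.25 after correction). NDUFA6, an accessory subunit of complex I, had 34, 39.1 and 39.4 against 78.2, 64.6 and 66.3 CPM (log2 0.90 ± 0.12), and ATP5F1C, the shaft of the ATP synthase, 148, 157 and 147 against 303, 219 and 228 CPM (log2 0.73 ± 0.11). Both sets of libraries stood apart. Mitochondrial ribosomal proteins gave 40 higher and 5 lower of 67 (median 0.31), with MRPL3 at 84.9, 91.7 and 91.6 against 188, 149.6 and 152 CPM (log2 0.87 ± 0.093). Of the cytosolic ribosomal proteins 10 were higher and 15 lower of 62, 4 and 22 after correction, with medians of 0.019 and -0.10. RPL28 stood at -0.96 and RPL35 at 0.35, and processed copies of these genes can share their reads. TCA cycle enzymes gave 10 higher and 9 lower of 23, from IDH2 at -0.82 to DLD at 0.83.

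Genes of cholesterol synthesis were called higher more often than lower. Of 25 genes of cholesterol synthesis and uptake 13 were higher and 4 lower, with a median of 0.36 beside 0.16 without capsule replicate 1 and 0.30 after correction (18 higher, 2 lower). HMGCS1, which makes HMG-CoA for the pathway, had 45.7, 50.9 and 46.9 against 149.6, 92.6 and 89 CPM. Capsule replicate 1 lay far above the other capsule libraries, which were still above all small spheroid libraries (log2 1.21 ± 0.15, edgeR adjusted p = 5.3e-06; 0.93 without capsule replicate 1). ACAT2, the thiolase of its first step, had 20.3, 21.1 and 19.7 against 94.2, 50.8 and 59 CPM (log2 1.74 ± 0.17, 1.43 without capsule replicate 1). SREBF2, the transcription factor of the pathway, was lower (-0.51). Fatty acid and lipid storage genes gave 8 higher and 3 lower of 26 (median 0.0028). ELOVL6, the elongase of palmitate, had 18.5, 18.1 and 16.7 against 48.4, 41.7 and 45.7 CPM (log2 1.35 ± 0.099), and FADS2, a desaturase of polyunsaturated fats, 6.0, 4.77 and 3.98 against 16.2, 24.3 and 24.6 CPM (log2 2.13 ± 0.25). FASN, fatty acid synthase, was not called (3335, 3152 and 3427 against 2963, 4266 and 3893 CPM, log2 0.17 ± 0.11, edgeR adjusted p = 0.21), but was called after correction (0.68) and without capsule replicate 1 (0.30). SCD, the desaturase of stearate, was called by a narrow margin (log2 0.18 ± 0.075, edgeR adjusted p = 0.048) and not when any library but capsule replicate 3 was left out (0.12 to 0.20). Outside the lists, CD36, a fatty acid receptor, had 3.87, 2.73 and 3.14 against 21, 11.6 and 12.7 CPM (log2 2.21 ± 0.23).

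The genes furthest apart between the formats were of several kinds. Their ranking took in only called genes without overlap between the formats, and 58.8% of all tested genes had no overlap. Lack of overlap is therefore no separate result for them. ABCG2, a drug efflux pump, had 3.73, 4.69 and 5.05 CPM in the small spheroid and 40.8, 25.8 and 28.5 CPM in the capsule libraries, 7.09-fold higher (log2 2.83 ± 0.18, edgeR adjusted p = 8.7e-09). Monolayer and large spheroid had 10.6 and 4.82 CPM. S100A8, a subunit of calprotectin, had 43.2, 48.4 and 41.3 against 359, 244 and 257 CPM (log2 2.70 ± 0.14), and its partner S100A9 143, 149 and 156 against 722, 568 and 599.9 CPM (log2 2.08 ± 0.092). The capsule libraries of all 3 were far above the small spheroid libraries. CLCA2, a chloride channel regulator of epithelia, had 7.07, 7.72 and 6.96 against 68.4, 31.9 and 32.7 CPM, with capsule replicate 1 above every other library (log2 2.62 ± 0.25, 2.15 without it). DKK1, a secreted WNT inhibitor, had 2.2, 2.8 and 3.21 against 26.6, 8.8 and 7.88 CPM, a log2 fold change of 2.41 ± 0.40 that was 1.61 once capsule replicate 1 was left out. FAM111B, a serine protease, was at 2.39 and ID1, an inhibitor of differentiation factors induced by BMPs, at 2.04. On the lower side, CASP14, the caspase of cornified skin, had 94.4, 120.1 and 98 against 13.7, 13.4 and 12.3 CPM, 7.91-fold lower in the capsule (log2 -2.98 ± 0.13, edgeR adjusted p = 2.7e-10). MUC5B, a gel-forming mucin, had 939, 918 and 986 against 128, 229 and 183 CPM (log2 -2.40 ± 0.16, -1.93 after correction). MUC1, the mucin of the apical membrane, had 414, 371 and 410.3 against 65, 115 and 119.7 CPM (log2 -2.0 ± 0.16, -1.42 after correction). No library of one format reached the other for these 3. PIGR, which carries antibodies across epithelia, had 179, 158 and 175 against 27.8, 41.7 and 39.4 CPM, where monolayer and large spheroid had 185 and 232 CPM. The scavenger receptor LRP1, the phospholipid transfer protein PLTP, the interferon-induced IFITM3 and the noncoding RNA H19 differed by -2.12, -1.78, -1.85 and -1.76.

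ERBB2, the receptor gene that trastuzumab's target comes from, was not called. It had 11587, 11230.1 and 11776 against 7743, 11136 and 10732 CPM, with capsule replicate 1 far below all others and capsule replicates 2 and 3 just under the lowest small spheroid library. The log2 fold change was -0.22 ± 0.11 (edgeR adjusted p = 0.094; -0.08 without capsule replicate 1, 0.09 after correction). Without capsule replicate 2 ERBB2 was called lower (-0.32). ERBB3, the kinase-poor partner of HER2, was lower (359, 338 and 373 against 238, 286 and 268 CPM, log2 -0.43 ± 0.080), and so was EGFR (166, 186 and 178 against 70.8, 99.2 and 93.9 CPM, log2 -1.01 ± 0.10, edgeR adjusted p = 7.6e-07). GRB7, an adaptor coamplified with ERBB2, had 1137, 1069.9 and 1139 against 678, 802 and 799 CPM (log2 -0.55 ± 0.085). CDK12 and MED1, from the same amplicon, were higher (0.38 and 0.39). Over the 17 receptors and amplicon genes 4 were higher and 7 lower, and 7 and 6 after correction, with medians of -0.19 and 0.042. Ligands and feedback inhibitors of the receptors gave 3 higher and 6 lower of 14 (2 and 6 without capsule replicate 1, 2 and 5 after correction), with the inhibitor ERRFI1 at 0.50 and the ubiquitin ligase CBL at -0.49. The list as fixed also holds MUC1, its lowest member, and MUC4.

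Downstream, immediate early factors, which growth factor signals switch on within minutes, were lower where they were called: 13 of 23 lower and 0 higher (median -0.43, -0.54 without capsule replicate 1, -0.31 after correction). JUND had 189, 189 and 175 against 58.4, 77.2 and 73.3 CPM (log2 -1.40 ± 0.14), EGR1 63.1, 62.5 and 56.6 against 32.4, 25.2 and 23.7 CPM (log2 -1.16 ± 0.11), and FOSL2 127, 139 and 127 against 74.8, 81.8 and 81.5 CPM (log2 -0.73 ± 0.082). None of the 3 overlapped. ERK feedback and target genes gave 2 higher and 9 lower of 23 (2 and 9 without capsule replicate 1, 3 and 6 after correction): DUSP6, a phosphatase of ERK, was higher (8.33, 10.2 and 9.56 against 25, 15.8 and 15.6 CPM, log2 1.01 ± 0.22), DUSP4 too (0.34), and DUSP5 and SPRY1 lower (-0.90 and -0.70). FOXO targets with insulin and IGF signalling had 4 higher and 16 lower of 28 (median -0.35), from BCL6 at -1.29 to SESN3 at 0.91. TXNIP, which binds thioredoxin and answers to glucose, had 164, 176 and 184 against 87.6, 107 and 105 CPM (log2 -0.81 ± 0.16). The MYC network had 2 higher and 6 lower of 13 (2 and 7 without capsule replicate 1, 1 and 5 after correction), with MYC at 257, 286 and 260.4 against 159, 218 and 212 CPM (log2 -0.45 ± 0.10).

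Luminal secretory proteins were lower more often than higher, 10 against 2 of 21, with a median of -0.52 (-0.52 without capsule replicate 1, -0.62 after correction). Higher members numbered 3 without capsule replicate 1 and 4 after correction, and lower members 10 and 12. The list as fixed also holds the enzyme FASN. SCGB2A2, mammaglobin, had 1553, 2262 and 1575 against 1171, 1081 and 1119 CPM, with small spheroid replicate 2 well above its fellows (log2 -0.68 ± 0.12). Monolayer stood at 40.8 CPM. SERPINA1, an inhibitor of elastase, had 88.2, 99.9 and 94.6 against 22.1, 27.9 and 27.1 CPM (log2 -1.88 ± 0.12), and TFF3 differed by -1.98. AGR2, the disulfide isomerase that folds mucins, went the other way with 382, 489.6 and 402 against 1477, 958 and 994 CPM (log2 1.43 ± 0.15), and so did its neighbour AGR3 (1.92). Luminal transcription factors split into 7 higher and 8 lower of 20, with FOXA1 at -0.48 and SPDEF at -0.66. Keratins gave 2 higher and 4 lower of 14 (2 and 6 without capsule replicate 1, 5 and 2 after correction). KRT8 was higher (1826, 2172 and 1952 against 2541, 2942 and 3035 CPM, log2 0.52 ± 0.088), while its partner KRT18 was not called (859.8, 888 and 902 against 852, 891 and 944 CPM, log2 0.02 ± 0.068, edgeR adjusted p = 0.83; called at 0.19 after correction) and KRT7 was lower (-0.33, -0.02 after correction).

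Adhesion and cytoskeleton genes were mixed, and the calls for several of these groups depended on the GC correction. Desmosome and adherens junction genes had 4 higher and 7 lower of 19 (4 and 6 without capsule replicate 1, 7 and 6 after correction), with EPCAM at 120.1, 127 and 115 against 209.6, 200.4 and 214 CPM (log2 0.79 ± 0.073) and JUP, plakoglobin, at -0.59. Tight junction genes had 4 higher and 8 lower of 21: CLDN3 stood at -1.12 and CGN, cingulin, at 0.50. Integrins and other matrix receptors had 5 higher and 3 lower of 16 (6 and 3 without capsule replicate 1, 7 and 2 after correction), with ITGB1 at 0.68 and ITGA5 at -1.10. Collagens, laminins and matrix proteins were 3 higher and 16 lower of 35 (median -0.44), but 8 and 10 with a median of -0.058 after correction. FBLN1, a fibulin, had 617, 719 and 634 against 191, 282 and 284 CPM (log2 -1.38 ± 0.12, -1.14 after correction), FN1, fibronectin, 60.7, 83.1 and 69.5 against 35.8, 50.8 and 45.3 CPM (log2 -0.69 ± 0.14), and THBS1, thrombospondin, was higher with 63.5, 56.1 and 67.8 against 136, 123 and 112 CPM (log2 0.98 ± 0.089). Actin cytoskeleton genes were 3 higher and 15 lower of 29 (2 and 15 without capsule replicate 1, 3 and 10 after correction), ACTG1 among them with 884, 972 and 956 against 376, 454 and 470.1 CPM (log2 -1.11 ± 0.087). YAP and TEAD targets were 2 higher and 7 lower of 22 (2 and 7 without capsule replicate 1, 3 and 9 after correction), and TGF-beta and BMP genes 9 and 6 of 22, with TGFB2 at -1.74 and ID2 and ID3 at 0.93 and 0.54.

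Among immune and death genes, interferon-stimulated genes had 4 higher and 7 lower of 28, with IFI6 at 172, 202 and 179 against 71, 67.2 and 70.1 CPM (log2 -1.41 ± 0.087) and SAMD9 higher (1.67, 3.1 and 1.84 against 5.06, 5.57 and 4.29 CPM, log2 1.18 ± 0.22). The highest fold change of the list was that of IFI27, with 0, 0.227 and 0.0765 against 0.506, 0.756 and 0.774 CPM (log2 2.71 ± 0.96, edgeR adjusted p = 0.026), a gene of few counts. MHC class I and peptide loading genes had 1 higher and 6 lower of 14, and members of this family can share reads. NF-kB targets had 1 higher and 7 lower of 16 (1 and 7 without capsule replicate 1, 2 and 7 after correction). BCL2 family genes had 1 higher and 5 lower of 15 (2 and 5 without capsule replicate 1, 4 and 6 after correction), with the death promoter BBC3 at -1.40 and BID at 0.68. Lysosome genes had 10 higher and 15 lower of 40. Within them the proton pump subunits ATP6V1D and ATP6V1G1 were higher (0.93 and 0.91) and the hydrolases GAA and HEXA lower (-1.91 and -0.94). Autophagy genes had 6 higher and 14 lower of 28, with MAP1LC3A at -0.95 and ATG3 at 0.59.

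Metal and redox genes included some of the larger differences. Of 6 metallothionein and zinc genes 4 were higher and 1 lower. MT2A, a metallothionein, had 19, 16.1 and 18.1 against 69, 79.2 and 84.9 CPM (log2 2.13 ± 0.11), and MT1X 2.6, 2.35 and 3.59 against 19.2, 13.5 and 15.3 CPM (log2 2.50 ± 0.18). Their near-identical relatives can share reads. SLC30A1, a zinc exporter under the same control, had 15.3, 18.4 and 14.8 against 34.8, 33.6 and 35.3 CPM (log2 1.10 ± 0.12). NRF2 and glutathione genes had 12 higher and 7 lower of 31: the quinone reductase NQO1 was higher (0.69, 0.47 without capsule replicate 1) and FTL, the ferritin light chain, lower (262, 268 and 268 against 90.6, 94.3 and 102 CPM, log2 -1.48 ± 0.075). The log2 fold changes of this list ran from -2.67 to 1.03, so FTL was not its lowest member. Aryl hydrocarbon receptor targets had 3 higher and 3 lower of 8 (1 and 2 without capsule replicate 1, 2 and 2 after correction), with CYP1A1 at 70.6, 90.3 and 73.1 against 45.3, 25.7 and 26 CPM (log2 -1.27 ± 0.17). Retinoid genes had 2 higher and 7 lower of 16, ABC transporters 6 and 9 of 22 (6 and 9 without capsule replicate 1, 6 and 6 after correction), and S100 proteins 5 and 4 of 13. Clock genes had 3 higher and 10 lower of 17 (1 and 9 without capsule replicate 1, 1 and 9 after correction) and a median of -0.62, with the output factor DBP at 45.5, 43.6 and 37.2 against 10.7, 14.6 and 14.5 CPM (log2 -1.67 ± 0.13), the nuclear receptor NR1D1 at -0.99 and CLOCK at 0.55. Short structured noncoding RNAs had 4 higher and 0 lower of 7. Replicate 3 of each format held more of them than its fellows: RN7SK, a regulator of transcription elongation, was at 5.13, 5.0 and 52.3 against 51.3, 51.1 and 121 CPM, so that small spheroid replicate 3 reached the capsule levels. Without small spheroid replicate 3 all 7 were called higher. RN7SL1, the RNA of the signal recognition particle, had 294, 332 and 474 against 1268, 1207 and 1533 CPM (log2 1.87 ± 0.14) and shares reads with RN7SL2.

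**Figure D5:**
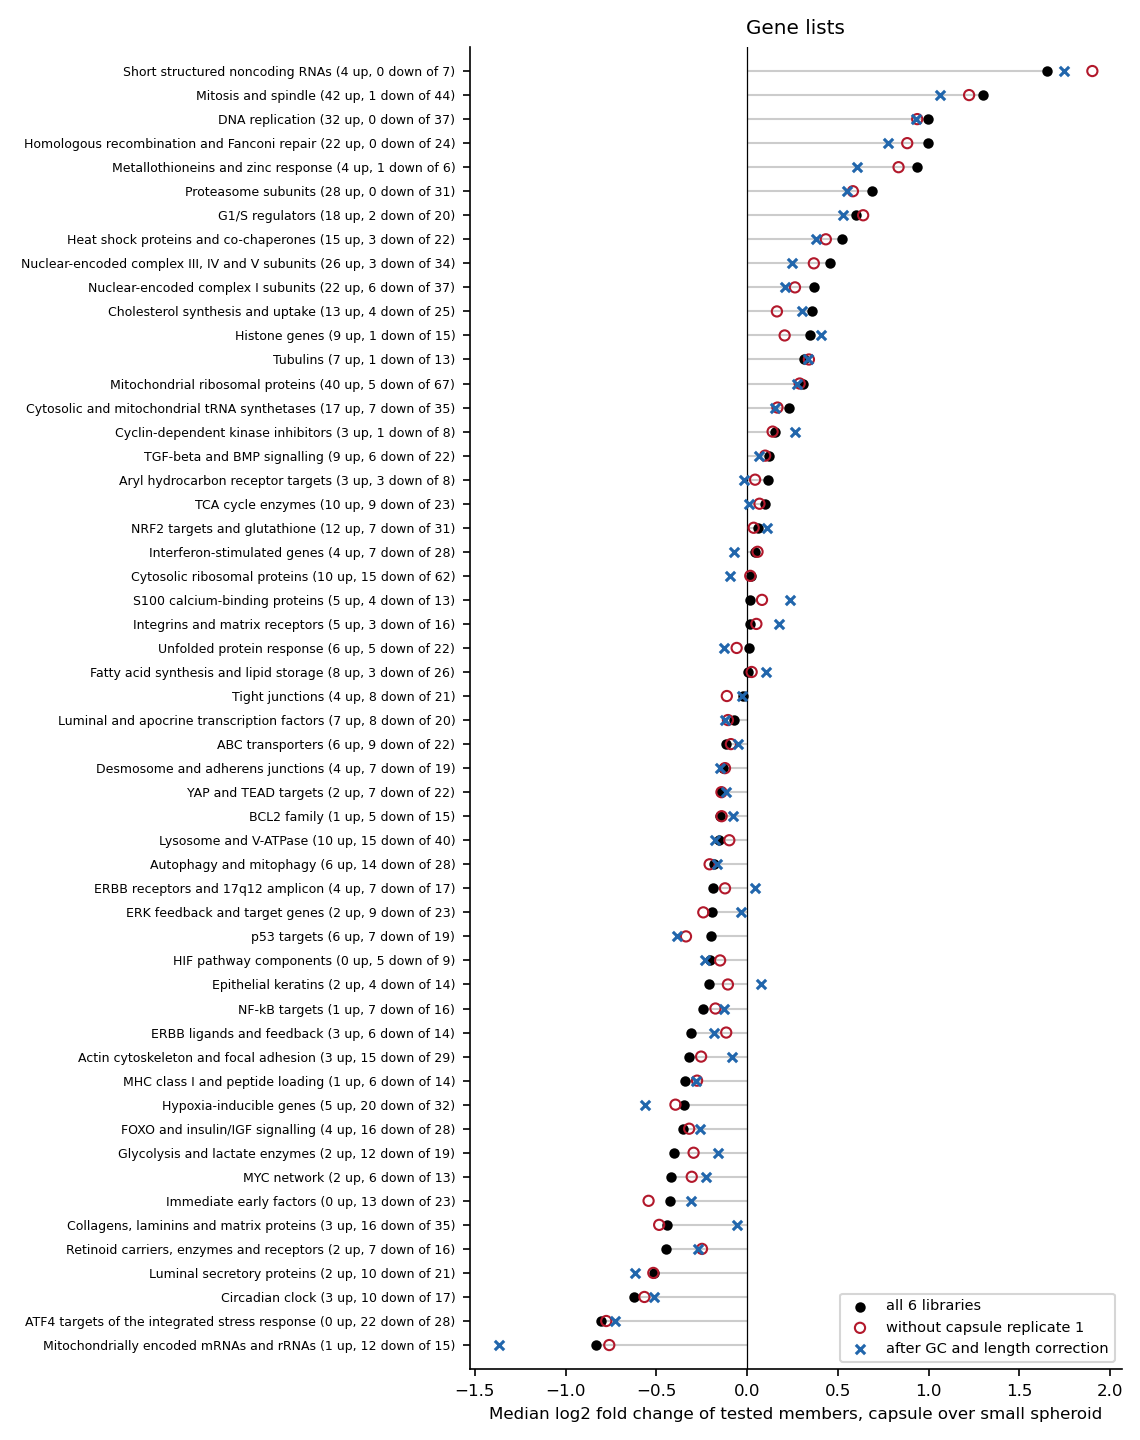
Median log2 fold change, capsule over small spheroid, of the tested members of 54 gene lists, sorted, with the counts of members called higher and lower beside each name. Black points are the main fit on all 12 libraries, which the legend names by the 6 libraries compared. Red circles are the fit without capsule replicate 1 and blue crosses the fit after GC and length correction. Mitosis (1.30) and ATF4 targets (-0.81) keep their sides under all 3 fits, and the collagen list moves from -0.44 to -0.058 with the correction.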

How the data were processed

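Total RNA of AU565 cultures was taken up in TRIzol and made into TruSeq libraries, per the labels' protocols. The deposited table holds raw counts per gene, made by the authors with featureCounts on hg38, per the submitters' processing notes. The strand setting, annotation release and aligner are not given in the labels or processing notes used here. Antisense, overlapping and near-identical genes are therefore uncertain.

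Counts were fitted with edgeR 4.0.16 in R 4.3.3 (filterByExpr, minimum count 10, TMM, glmQLFit and glmQLFTest), with all 12 libraries, 1 coefficient per format, the contrast capsule minus small spheroid, and Benjamini-Hochberg adjustment over all 15175 genes tested, called at 0.05. The test against 1.5-fold was glmTreat. Of the tested genes 131 have no symbol. Printed CPM are TMM-scaled, and marker sums are scaled to library totals. Totals of 13971346 to 15742541 counts set the counting error. The printed standard errors and p-values also take in the spread between libraries. Each standard error is the absolute log2 fold change over the square root of the quasi-likelihood F. That spread was estimated over all 12 libraries, so it is not the spread of the capsule libraries alone. On simulated counts with 200 of 15175 genes changed, 97% of 2-fold and 100% of 4-fold changes were recovered, and 6.19% of calls were false. The changed genes were drawn from well-counted genes only and were far fewer than those called in the data. The simulated counts held no trend with GC content and no capsule library that stood apart. These rates therefore need not hold for the data or for genes of few counts.

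The members and lists were chosen with earlier results of these data known, so lists are described by counts and medians and not tested. Named genes are the 15 most changed called genes a side at a mean of 10 CPM or more and the 10 a side at 100 CPM or more, without overlap between formats. Added to these were up to 3 members per list in its main direction and 2 in the other by adjusted p, and 23 genes named in any case. Some genes are not reported here. Further list members were named after their values were seen. Alternatives were DESeq2 1.42.0, limma-voom (limma 3.58.1), other normalizations and filters, 6 libraries only, a replicate block, GC and length correction (per-library smooth, span 0.3), and leaving out each library. GC content and length are from GENCODE transcripts matched by gene identifier. Promoter sequences are from RefSeq, GRCh38.p14.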

Additional observations from a re-analysis of the deposited data

How the results depend on the processing

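With all 12 libraries in the fit 7893 genes were called. The alternatives called 7805 (DESeq2), 7777 (limma-voom), 7898 (DESeq2 size factors), 8023 (library totals), 7968 (no filter), 7425 (minimum count 50) and 6856 (6 libraries only). Leaving out 1 library at a time gave 6836 to 7870 genes called, 3493 to 4074 higher and 3335 to 3796 lower. Beyond 1.5-fold the same settings gave 1100 to 1730 genes, 547 to 931 higher and 553 to 799 lower.

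Same-numbered capsule and small spheroid libraries correlated at -0.079, -0.028 and 0.060 in their deviations from the group means. Not every library correlated best with its own number, though the replicates 3 did. Deviations from a mean of 3 libraries are not independent and capsule replicate 1 stood apart, so these values cannot decide whether the numbers mark pairs. Replicate 3 of each format also held more of the short noncoding RNAs. The fit with a replicate block called 7576 genes. With GC and length correction 959 genes passed the test beyond 1.5-fold, 483 of them higher. With the replicate block and that correction together 6956 genes were called and 946 passed beyond 1.5-fold, 474 higher and 472 lower.

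List medians turned sign as follows; the cause was not tested. GC and length correction, without and with the replicate block, gave -0.097 and -0.097 for cytosolic ribosomal proteins, -0.13 and -0.13 for the unfolded protein response, 0.042 and 0.037 for ERBB receptors and the amplicon, 0.078 and 0.077 for keratins, -0.070 and -0.065 for interferon-stimulated genes, and -0.019 and -0.016 for aryl hydrocarbon receptor targets. Library totals gave 0.030 for luminal transcription factors and 0.077 for tight junctions. Interferon-stimulated genes came to -0.044 at a minimum count of 50, -0.034 with 6 libraries only, and lay between -0.14 (without capsule replicate 2) and 0.057 when 1 library was left out. The unfolded protein response ranged from -0.058 (without capsule replicate 1) to 0.016, and aryl hydrocarbon receptor targets from -0.096 (without small spheroid replicate 3) to 0.25.

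Beside the counts given in the report, the number called in the more frequent direction of a list moved as follows. CDK inhibitors called higher were 5 on library totals and 1 without small spheroid replicate 3. Histones called higher were 5 with 6 libraries only. Keratins called lower were 2 with GC and length correction, with and without the block, and without small spheroid replicate 1. Desmosome genes called lower were 4 on library totals, with 6 libraries only, and without small spheroid replicate 2 or 3. Collagens called lower were 10 with GC and length correction. BCL2 family genes called lower were 3 on library totals, aryl hydrocarbon receptor targets called higher 1 without capsule replicate 1, and short noncoding RNAs called higher 7 without small spheroid replicate 3.

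Of the 292 genes named by rule, GC and length correction ended the call of 24 with the sign kept and gave one to 3, with the block as without it. CRY1 (-0.15), HSP90B1 (-0.0071) and PLOD2 (-0.13) lost their calls as well and their estimates changed sign. Genes of few counts and differences under the spread of 3 libraries a side are beyond the reach of this depth.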

Other observations

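Some gene families that the lists do not cover as such were looked up after their values had been seen, and are given as values only. MUC1, MUC4, KDM3A and SNORD3A of these families also stand in lists of the report. All 8 subunits of the TRiC chaperonin, which folds actin and tubulin, were called higher in the capsule, with a median log2 fold change of 0.69 (7 of 8 after GC and length correction). CCT2 had 187, 228 and 192 CPM in the small spheroid libraries against 563, 367 and 390.2 CPM in the capsule libraries (log2 1.12 ± 0.13), and CCT5 395, 450.4 and 413 against 1067, 689.7 and 717 CPM (log2 0.97 ± 0.12). Neither overlapped between formats. Small nuclear ribonucleoproteins of the spliceosome had 9 of 11 members higher and 0 lower (median 0.69, and 0.37 with 9 higher after correction). Nucleoporins had 14 of 21 higher and 1 lower (median 0.54, 0.37 after correction). The TIMM and TOMM proteins, which import proteins into mitochondria, had 17 of 24 higher and 2 lower (median 0.33, 0.32 after correction).

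Mucins had 6 of 11 members lower and 0 higher (median -0.73; after correction 5 lower and 1 higher). With the correction MUC5AC and MUC6 lost the call (-0.51 and -0.0064). MUC15 was then called lower (-0.51) and MUC2, a gene of few counts, higher (1.83). MUC16 had 315, 274 and 313 against 151, 221 and 171 CPM (log2 -0.73 ± 0.12), and MUC3A 16.2, 22.1 and 20.3 against 6.32, 9.63 and 12.7 CPM (log2 -1.04 ± 0.19). Lysine demethylases of the KDM family, which remove methyl groups from histones, had 7 of 17 lower and 1 higher (median -0.10; after correction 6 lower and 2 higher). The members called lower changed with the correction. KDM2A, KDM4A, KDM5C and KDM6B lost the call, and KDM1B, KDM3A and KDM7A were called lower (-0.34, -0.30 and -0.41). Of 107 small nucleolar RNAs 23 were called higher and 0 lower (median 0.42), but 13 and 1 after correction (median 0.019). Most lie in introns of other genes, whose reads can be counted with them.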
